A study of Mus musculus with 4 samples.

Results

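The barcodes described here were 431 of the 8121 that passed the cell filters in a testis library from a mouse labelled Znhit1_KO at postnatal day 35, or 5.31% (exact 95% interval 4.83 to 5.82). They were chosen by 3 measured genes, as unique molecular identifiers (UMIs) scaled to 1000000 per barcode (CPM): Meig1 of at least 1200, Sycp1 of at least 1000 and Ldhc under 2500 CPM. They are called Meig1-high, Ldhc-low barcodes below. They were set against 2961 barcodes with the same Sycp1 minimum and Meig1 under 1200 CPM (low-Meig1 barcodes), and against 122 barcodes that met both minimums but had Ldhc of 2500 CPM or more (Ldhc-high barcodes). The study profiled single testis cells with 10x Genomics 3′ chemistry in 4 libraries, Znhit1_KO and CTRL at day 16 and day 35, with 1 library in each group. The count matrix of the day 35 Znhit1_KO library was used, and the matrices of the other 3 were not analysed here, so no value below compares genotypes or ages. The labels give the tissue as testis and the cells as testis cells, and state neither the strain, nor the allele, nor the promoter of any Cre used for the deletion. All 3 classes come from the same library and share its genotype, and there is no replicate. Intervals therefore cover counting error only, no test was possible, and a difference in level cannot be separated from a difference in which cells each class holds.

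In male meiosis, homologous chromosomes break, pair and recombine, and in the pachytene stage they are held together along their whole length by the synaptonemal complex, of which SYCP1 is the central bridge. The X and Y chromosomes find little to pair with and are silenced in the sex body, while autosomes begin to transcribe a large programme for piRNA production, the sperm tail, the acrosome and sperm energy metabolism. Znhit1 encodes a protein of the SRCAP remodeller, and this remodeller exchanges canonical H2A for H2A.Z. Meig1 encodes a protein needed for sperm tail assembly, and Ldhc the lactate dehydrogenase of the testis, whose transcript accumulates late in pachytene.

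The 3 genes that define the class are a description and support nothing further. Meig1 had 2571 CPM in the summed Meig1-high, Ldhc-low barcodes, against 228 CPM in low-Meig1 and 3576 CPM in Ldhc-high barcodes. Sycp1 had 3568 CPM in Meig1-high, Ldhc-low barcodes, against 2992 and 2376 CPM in low-Meig1 and Ldhc-high barcodes. Ldhc had 735 CPM in Meig1-high, Ldhc-low barcodes, against 131 CPM in low-Meig1 and 4514 CPM in Ldhc-high barcodes. Levels ran on through the limits without a gap at Meig1. The nearest barcodes had 1204.82 CPM of Meig1 inside the limit and 1199.52 CPM outside it, with 62 barcodes in the 20% above and 77 in the 20% below. For Ldhc the nearest values were 2478.83 CPM inside and 2560.82 CPM outside, with 14 and 16 barcodes within 20%. For Sycp1 they were 1035.2 CPM inside and 998.0 CPM outside. A barcode's place can rest on few molecules: Meig1 had a median of 22 UMIs per Meig1-high, Ldhc-low barcode (range 2 to 160, with 3 or fewer in 54), Sycp1 33 (2 to 140, 3 or fewer in 52) and Ldhc 4 (0 to 82, none in 56). The plot of both genes by barcode shows this as a cloud that narrows towards the Ldhc limit.

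**Figure D1:**
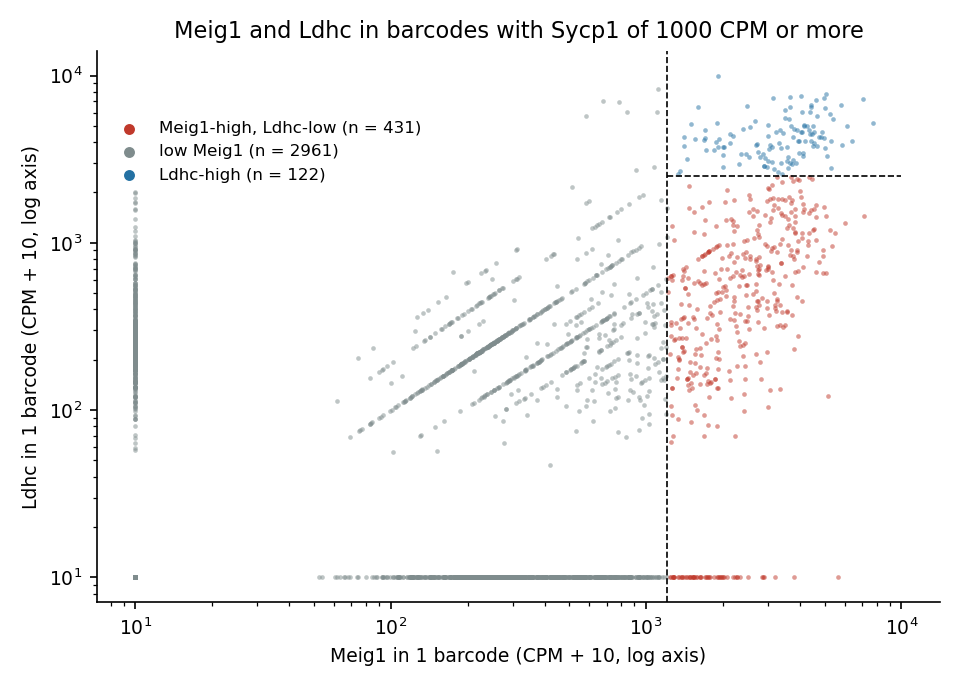
Meig1 (x axis) and Ldhc (y axis) in each barcode with Sycp1 of at least 1000 CPM, as CPM plus 10 on log axes, with dashed lines at the limits of the rule. The 431 Meig1-high, Ldhc-low barcodes (red) adjoin the 122 Ldhc-high barcodes (blue) and the 2961 low-Meig1 barcodes (grey) with no gap, and the straight streaks are barcodes with 1 or a few UMIs of each gene.

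The library held 15306 barcodes and 72459160 UMIs, with a median of 3409 UMIs per barcode (500 to 87246). Depth and the mitochondrial share differed between the classes, and their part in the results was not tested. Meig1-high, Ldhc-low barcodes had a median of 9182 UMIs (1014 to 41842), 3392 genes and 4.14% mitochondrial UMIs. Low-Meig1 barcodes had 4637 UMIs, 2403 genes and 6.41%, and Ldhc-high barcodes 18679 UMIs, 4834 genes and 2.69%. Summed, the classes held 4590302, 16582977 and 2765286 UMIs. Scrublet called 14 of the 431 barcodes doublets, against 116 low-Meig1 and 1 Ldhc-high, and they were kept in the main values. Of the 431 barcode sequences, 5 also occur in another library of the series, and the other 3 libraries list 13734 to 14381 barcodes each.

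Against lists of cell type markers the class carried genes of pachytene spermatocytes, as its label says. All 10 pachytene markers were higher than in low-Meig1 barcodes and 7 of the 9 with enough counts were at least 2-fold higher, with summed levels of 2786 CPM in Meig1-high, Ldhc-low, 714 CPM in low-Meig1 and 4029 CPM in Ldhc-high barcodes. Hspa2 is also in the label of the class. In Meig1-high, Ldhc-low barcodes of at least 3000 UMIs it gave 1279 of the 2825 CPM of the pachytene sum. Over all genes, 11.2% were higher and 30.7% lower than in low-Meig1 barcodes by 2-fold or more. The counts of lower markers in this paragraph stand beside that 30.7%. Of 8 early prophase markers 7 were at least 2-fold lower, and the sum was 595 CPM against 1606 CPM in low-Meig1 barcodes. Of 8 spermatogonium markers 7 were at least 2-fold lower, with sums of 117 against 622 CPM. The 7 late spermatocyte markers were mixed. Of the 5 with enough counts, 4 rose and 1 fell by 2-fold or more. Their sums were 1494 CPM in Meig1-high, Ldhc-low, 347 CPM in low-Meig1 and 6706 CPM in Ldhc-high barcodes. These sums include the rule gene Ldhc, so they do not show a late spermatocyte identity. Among 12 spermatid markers Prm1, Tnp2, Odf1 and Akap4 were at 0, and the list summed to 11.8 CPM in Meig1-high, Ldhc-low, 4.76 CPM in low-Meig1 and 65.1 CPM in Ldhc-high barcodes. Markers of other cells were also present, each list with a lower sum than in low-Meig1 barcodes. The Sertoli sum exceeded that of early prophase markers. Per Meig1-high, Ldhc-low barcode it had a median of 827 CPM and a highest level of 19608 CPM. The 10 Sertoli markers summed to 938 CPM in Meig1-high, Ldhc-low, 1471 CPM in low-Meig1 and 574 CPM in Ldhc-high barcodes, and the 8 Leydig markers to 455, 691 and 192 CPM in the same order, none at 0. The 7 macrophage markers summed to 59.3, 159 and 43.0 CPM, with 5 at least 2-fold lower than in low-Meig1 barcodes, and the 4 erythrocyte markers to 6.75, 146 and 4.34 CPM, with all 4 at least 2-fold lower. Myoid, stroma and endothelial markers summed to 115, 56.0 and 11.98 CPM in Meig1-high, Ldhc-low and to 214, 109 and 24.2 CPM in low-Meig1 barcodes. Lymphocyte markers were at or near 0, with Cd3g, Nkg7, Trbc2 and Ms4a1 at 0 in the class. The part of RNA from these cells in the results was not tested.

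The label of the class names Rsph1, Fabp9 and Hspa2 beside Meig1, and their levels follow as a description. Rsph1, a radial spoke head protein of the axoneme (chr17:31255019-31277383, mm10, minus strand), had a lowest, median and highest level of 0, 3224 and 7420 CPM over Meig1-high, Ldhc-low barcodes. The same values were 0, 210 and 6294 CPM over low-Meig1 barcodes and 1229, 4455 and 7832 CPM over Ldhc-high barcodes. The ranges overlapped while the medians were far apart, and the summed levels of 3441 and 523 CPM in Meig1-high, Ldhc-low and low-Meig1 barcodes gave a ratio of 6.58 (6.41 to 6.76). Fabp9, a fatty acid-binding protein of germ cells (chr3:10193621-10197283, minus strand), had 0, 1260 and 20833 CPM over Meig1-high, Ldhc-low barcodes, against 0, 0 and 7008 CPM over low-Meig1 barcodes. Its summed ratio was 12.2 (11.7 to 12.8), and its level of 1752 CPM lay below the 3943 CPM of Ldhc-high barcodes. Hspa2, the meiotic HSP70 chaperone (chr12:76404176-76406938, plus strand), had 0, 1066 and 3332 CPM over Meig1-high, Ldhc-low barcodes, against 0, 75.3 and 2483 CPM over low-Meig1 barcodes, with a summed ratio of 4.84 (4.65 to 5.03).

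To set shares of barcodes side by side at equal depth, each barcode with at least 3000 UMIs was thinned to 3000, which kept 366 Meig1-high, Ldhc-low barcodes and left out 65. Rsph1 was then seen in 100% of Meig1-high, Ldhc-low barcodes and 48.0% of low-Meig1 barcodes. Fabp9 was seen in 92.3% and 25.4%, and Hspa2 in 94.3% and 39.8%. In 713 thinned barcodes selected on Leydig markers, cells that should lack these transcripts, the shares were 15.01%, 9.82% and 12.3%. Before thinning, Scrublet called 36 of 724 Leydig-marker barcodes doublets. Whether free RNA or doublets brought these transcripts was not tested. Before thinning, Rsph1 was seen in 95.6% of Meig1-high, Ldhc-low and 62.1% of low-Meig1 barcodes, Fabp9 in 90.7% and 38.2%, and Hspa2 in 90.5% and 50.6%.

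Across the genome, genes were compared on summed counts where both classes together held at least 20 UMIs, leaving out the 3 rule genes. Of 15331 such genes, 1718 (11.2%) were higher by 2-fold or more and 4703 (30.7%) lower by 2-fold or more in Meig1-high, Ldhc-low than in low-Meig1 barcodes. The rule chose the class on this same contrast, so these counts are a description. The median log2 ratio over all genes was -0.48, so a gene with equal CPM in both classes stood above the middle gene by that amount. Against Ldhc-high barcodes 11803 genes could be compared, and 1275 (10.8%) were higher by 2-fold or more and 1409 (11.9%) lower by 2-fold or more, with a median log2 ratio of 0.13. The plot of lists by gene shows both contrasts side by side. They share the 431 barcodes, so they are not independent of each other.

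**Figure D2:**
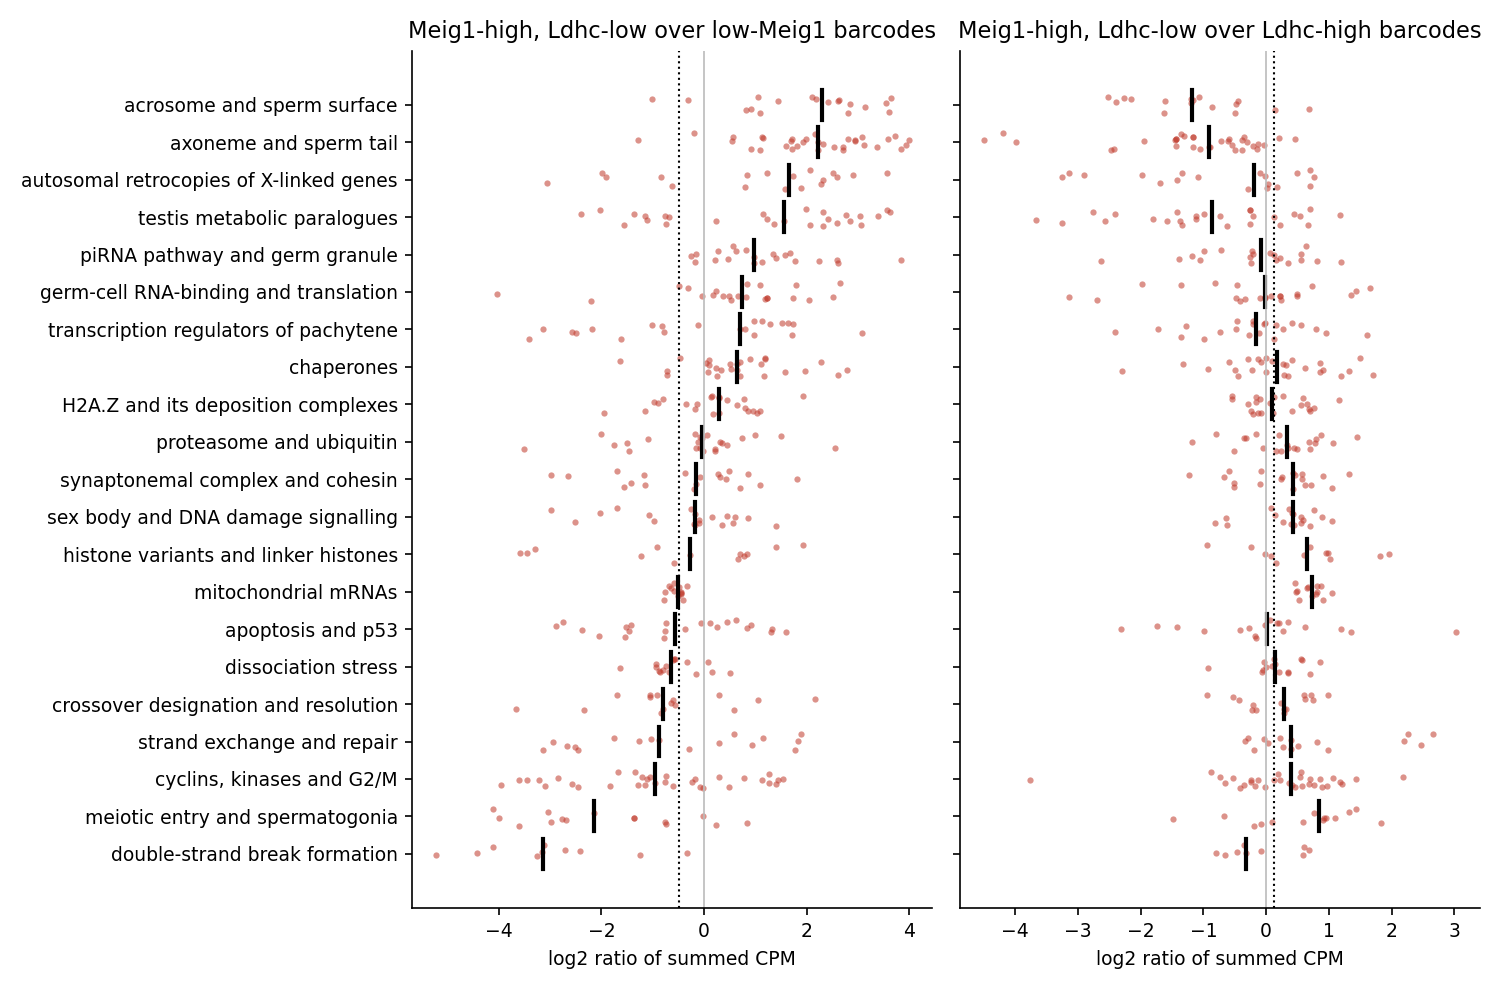
Log2 ratio of summed CPM for each gene (points) of 21 lists, in Meig1-high, Ldhc-low over low-Meig1 barcodes (left) and over Ldhc-high barcodes (right), with the list median as a black bar, the median of all genes as a dotted line and equal levels as a grey line. Acrosome and sperm tail genes lie highest on the left, with medians of 2.30 and 2.22, and lowest on the right, with medians of -1.18 and -0.90, while the break formation genes have a median of -3.14 on the left.

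Among genes of at least 100 CPM in the class, the largest ratios to low-Meig1 barcodes were those of 1700009C05Rik (18.1), Flacc1 (16.9), 4930430A15Rik (16.1), Elfn2 (16.1), 4930444F02Rik (15.7), Spag17 (15.4), Lypd10 (15.004), Morc2b (14.8), Piwil1 (14.4), Spag6l (14.3), AC163638.2 (13.9) and 1700006A11Rik (12.8). Spag17 and Spag6l encode parts of the central apparatus of the sperm tail, Flacc1 a flagellum-associated protein, Morc2b a germline MORC protein and Piwil1 the pachytene Argonaute MIWI, which binds piRNAs. Spag6l and Spag6 are near copies, and the labels do not say how reads that fit both were counted. Piwil1 had a lowest, median and highest level of 0, 171 and 1446 CPM over Meig1-high, Ldhc-low barcodes, against 0, 0 and 1708 CPM over low-Meig1 and 0, 685 and 1638 CPM over Ldhc-high barcodes. The highest low-Meig1 barcode thus exceeded every Meig1-high, Ldhc-low barcode, although more than 50% of low-Meig1 barcodes held no Piwil1 UMI. Thinned to 3000 UMIs, 50.5% of Meig1-high, Ldhc-low barcodes (45.3 to 55.8) held a Piwil1 UMI, against 5.51% of low-Meig1, 81.7% of Ldhc-high and 3.23% of Leydig-marker barcodes.

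Promoters of genes that were high in the class, and of Ldhc, are shown with the letters bound by 3 families of regulators of meiotic and ciliary transcription. They were chosen after their matches were seen, as 6 windows with matches and 1 without. The windows run from 250 bases before to 50 after the start in RefSeq (GRCm38.p6), 5′ to 3′ on the gene's strand. Of 21 genes considered for this, 13 had such a window. Capitals mark AACTG (the core read by MYB factors), GTTGCC (a part of the RFX motif) and TGACGT (a part of the cyclic AMP response element), on either strand, so that CAGTT is AACTG read from the other strand. TGACGTCA holds TGACGT on both strands and counts 2 times. The windows are Piwil1 at chr5:128735996-128736295 (plus), Spag17 at chr3:99885167-99885466 (plus), Lypd10 at chr7:24709009-24709308 (plus), Spag6l at chr16:16829314-16829613 (minus), Hspa2 at chr12:76404120-76404419 (plus) and Ldhc at chr7:46861013-46861312 (plus), and the window without a match is 4930444F02Rik at chr10:18831881-18832180 (minus). The Piwil1 window lies inside the interval that GENCODE gives the gene, chr5:128702524-128755474.
Piwil1: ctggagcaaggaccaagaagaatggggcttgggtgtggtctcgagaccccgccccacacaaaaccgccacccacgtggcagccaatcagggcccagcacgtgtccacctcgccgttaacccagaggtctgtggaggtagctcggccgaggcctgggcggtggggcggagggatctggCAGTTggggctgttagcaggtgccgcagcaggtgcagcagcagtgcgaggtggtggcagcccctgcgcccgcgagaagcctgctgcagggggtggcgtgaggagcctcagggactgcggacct
Spag17: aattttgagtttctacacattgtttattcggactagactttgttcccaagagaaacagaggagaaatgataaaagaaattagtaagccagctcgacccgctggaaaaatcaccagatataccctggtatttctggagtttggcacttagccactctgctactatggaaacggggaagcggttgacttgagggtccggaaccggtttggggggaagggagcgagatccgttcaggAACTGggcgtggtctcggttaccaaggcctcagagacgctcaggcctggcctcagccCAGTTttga
Lypd10: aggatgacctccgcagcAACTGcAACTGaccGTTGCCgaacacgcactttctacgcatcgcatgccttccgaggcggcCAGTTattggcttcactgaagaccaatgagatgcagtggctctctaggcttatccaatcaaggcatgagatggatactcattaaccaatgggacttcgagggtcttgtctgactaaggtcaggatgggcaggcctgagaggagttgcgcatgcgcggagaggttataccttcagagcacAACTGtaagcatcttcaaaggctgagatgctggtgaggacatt
Spag6l: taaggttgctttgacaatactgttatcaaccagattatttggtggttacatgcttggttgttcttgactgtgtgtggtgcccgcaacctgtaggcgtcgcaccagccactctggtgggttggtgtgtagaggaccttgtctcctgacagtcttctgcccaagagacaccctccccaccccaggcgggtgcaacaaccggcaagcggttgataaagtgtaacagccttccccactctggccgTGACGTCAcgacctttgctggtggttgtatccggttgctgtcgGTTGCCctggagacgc
Hspa2: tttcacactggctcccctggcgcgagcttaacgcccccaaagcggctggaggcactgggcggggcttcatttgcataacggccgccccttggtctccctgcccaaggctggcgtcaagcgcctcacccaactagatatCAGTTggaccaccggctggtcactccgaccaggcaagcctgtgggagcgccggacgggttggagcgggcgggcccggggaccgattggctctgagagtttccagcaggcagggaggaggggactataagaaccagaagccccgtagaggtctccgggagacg
Ldhc: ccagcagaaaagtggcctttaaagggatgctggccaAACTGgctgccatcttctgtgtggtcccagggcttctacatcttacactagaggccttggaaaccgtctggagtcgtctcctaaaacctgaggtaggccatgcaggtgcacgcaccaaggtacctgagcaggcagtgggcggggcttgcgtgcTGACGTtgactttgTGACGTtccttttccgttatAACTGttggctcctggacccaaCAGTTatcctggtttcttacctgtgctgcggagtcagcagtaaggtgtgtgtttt
4930444F02Rik: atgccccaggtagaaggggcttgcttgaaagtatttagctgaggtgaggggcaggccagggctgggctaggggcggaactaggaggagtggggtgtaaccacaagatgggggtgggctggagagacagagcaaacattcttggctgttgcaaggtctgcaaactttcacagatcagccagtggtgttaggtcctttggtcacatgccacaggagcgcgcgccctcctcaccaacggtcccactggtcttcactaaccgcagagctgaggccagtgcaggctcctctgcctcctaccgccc

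AACTG occurred 1 time in the Piwil1 and Hspa2 windows, 2 times in Spag17, 3 times in Ldhc and 4 times in Lypd10. GTTGCC occurred 1 time in Lypd10 and in Spag6l, and TGACGT 2 times in Spag6l and in Ldhc. Ldhc has 2 windows, and the one not shown, chr7:46861237-46861536, held AACTG 1 time and TGACGT 0 times. None of the 3 occurred in the window of 4930444F02Rik or in either window of Morc2b, both among the 12 largest ratios, or in that of Sycp1. They were also absent from the Meig1 window at chr2:3422599-3422898 and the Flacc1 window at chr1:58692396-58692695, while the other windows of these genes held AACTG. Over gene sets, AACTG was found in 62.9% of 205 windows of genes at least 8-fold higher in Meig1-high, Ldhc-low than in low-Meig1 barcodes, in 46.8% of windows of genes at least 2-fold higher and in 38.6% of windows of all genes measured. It was also found in 44.8% of all windows of the same length in the table, which includes genes not measured here. GTTGCC was found in 24.9%, 20.7% and 13.0% of the same 3 sets and in 12.5% of all windows. TGACGT was found in 5.85%, 8.77% and 10.8%, and in 7.51% of all windows. These are matches of letters, not binding sites, and a window without a match says nothing about the factor.

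Among regulators of the pachytene programme, 7 of 21 measured genes were higher by 2-fold or more and 7 lower by as much than in low-Meig1 barcodes, with a median log2 ratio of 0.70 beside -0.48 for all genes. Over all genes the shares were 11.2% higher and 30.7% lower. Rfx4, a member of the RFX family, had 61.9 CPM in Meig1-high, Ldhc-low, 7.36 CPM in low-Meig1 and 66.9 CPM in Ldhc-high barcodes. Tcfl5, a helix-loop-helix factor needed for pachytene progression, had 455, 136 and 525 CPM in the same order, a ratio of 3.34 (3.14 to 3.54) to low-Meig1 barcodes. Mybl1, the MYB factor of pachytene cells, had 171, 105 and 142 CPM, a ratio of 1.63 (1.49 to 1.77). Each of these 3 was already close to its Ldhc-high level. Among those that were lower, Taf7l, an X-linked TFIID subunit, had 64.3 CPM in Meig1-high, Ldhc-low, 568 CPM in low-Meig1 and 211 CPM in Ldhc-high barcodes. Bach2, a leucine zipper repressor, had 2.83 CPM in Meig1-high, Ldhc-low and 30.03 CPM in low-Meig1 barcodes.

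Of 21 piRNA pathway and germ granule genes, 10 were higher by 2-fold or more and none lower by as much than in low-Meig1 barcodes, with a median of 0.97. Over all genes the shares were 11.2% and 30.7% and the median -0.48. Piwil1 led the piRNA list. Tdrd6, whose Tudor protein builds the chromatoid body, had 12.9 CPM in Meig1-high, Ldhc-low and 2.11 CPM in low-Meig1 barcodes, and its 79.9 CPM in Ldhc-high barcodes was 6.22-fold above the class. Tdrd1 had 215 CPM in Meig1-high, Ldhc-low and 35.8 CPM in low-Meig1 barcodes, and Tdrd5 had 238 and 50.4 CPM. Mov10l1, the helicase that starts piRNA processing, was within 2-fold at 791 and 448 CPM, and its Ldhc-high level was lower, at 346 CPM. Of 22 RNA-binding and translation genes 9 were higher by 2-fold or more and 2 lower by as much, with a median of 0.74. Khdrbs3, a splicing regulator, had 246 CPM in Meig1-high, Ldhc-low and 39.3 CPM in low-Meig1 barcodes. Ybx3, a Y-box protein, had 368 and 88.6 CPM, against 2383 CPM in Ldhc-high barcodes. Elavl2, a Hu-family protein, had 10.7 CPM in Meig1-high, Ldhc-low and 175 CPM in low-Meig1 barcodes, 16.4-fold lower (12.4 to 22.3).

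Of 33 axoneme and tail genes, 28 were higher by 2-fold or more and 1 lower by as much than in low-Meig1 barcodes, with a median of 2.22. Over all genes the shares were 11.2% and 30.7% and the median -0.48. Against Ldhc-high barcodes none of 33 was at least 2-fold higher and 16 were lower by 2-fold or more, with a median of -0.90. In that comparison 10.8% of all genes were higher and 11.9% lower by as much, with a median of 0.13. Tekt4, a tektin of the tail, had 54.7 CPM in Meig1-high, Ldhc-low, 3.44 CPM in low-Meig1 and 102 CPM in Ldhc-high barcodes. Spag17 had 252, 16.4 and 366 CPM in the same order, with a lowest, median and highest level of 0, 126 and 1942 CPM over Meig1-high, Ldhc-low barcodes. Other genes of the list were low in the class. Dnah17, an outer arm dynein heavy chain, had 6.97 CPM in Meig1-high, Ldhc-low, 3.68 CPM in low-Meig1 and 110 CPM in Ldhc-high barcodes. Tekt3 had 0 UMIs in the class and 41 in Ldhc-high barcodes (14.8 CPM), so it was at least 22.7-fold lower when its 0 is set to 3 UMIs over the class. Akap3, an anchoring protein of the tail sheath, was the gene at least 2-fold lower than in low-Meig1 barcodes, from 4 UMIs in the class.

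Of 18 acrosome and sperm surface genes 14 were at least 2-fold higher and 1 lower than in low-Meig1 barcodes, with a median of 2.30. Over all genes the shares were 11.2% and 30.7% and the median -0.48. Dkkl1, an acrosomal glycoprotein, had 383 CPM in Meig1-high, Ldhc-low, 30.5 CPM in low-Meig1 and 879 CPM in Ldhc-high barcodes. Acr, the protease acrosin, had 35.3, 3.02 and 81.0 CPM in the same order. Acrbp, which binds proacrosin, had 27.9, 6.51 and 159 CPM. Against Ldhc-high barcodes 10 of 16 of these genes were at least 2-fold lower and none at least 2-fold higher, with a median of -1.18. In that comparison 11.9% of all genes were lower and 10.8% higher by as much, with a median of 0.13. Calr3, a testis calreticulin, was the gene at least 2-fold lower than in low-Meig1 barcodes, with 2.83 CPM in Meig1-high, Ldhc-low and 5.73 CPM in low-Meig1 barcodes.

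Germ cells replace several enzymes of energy metabolism by testis paralogues, often autosomal copies of X-linked genes. Of 27 genes in the metabolic list 17 were higher by 2-fold or more and 6 lower by as much than in low-Meig1 barcodes. Over all genes these shares were 11.2% and 30.7%. In the pairs named next the testis copy was higher and its somatic counterpart lower. The median log2 ratio over all genes was -0.48, so a lower level alone does not set a somatic gene apart. Cox6b2, a testis subunit of cytochrome c oxidase, had 1186 CPM in Meig1-high, Ldhc-low and 142 CPM in low-Meig1 barcodes, while its somatic partner Cox6b1 had 57.5 and 148 CPM. Cyct, the testis cytochrome c, had 517 and 76.3 CPM, while Cycs had 217 and 349 CPM. The ratios were 8.33 (7.93 to 8.74) for Cox6b2, 0.390 (0.342 to 0.443) for Cox6b1, 6.78 (6.33 to 7.27) for Cyct and 0.621 (0.580 to 0.665) for Cycs.

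The pairs with an X-linked parent showed the same directions. X-linked genes as a whole had a median log2 ratio of -1.84, so the lower parents are not set apart from other X-linked genes. Pdha2, the autosomal copy of the pyruvate dehydrogenase subunit, had 349 CPM in Meig1-high, Ldhc-low and 69.7 CPM in low-Meig1 barcodes, while X-linked Pdha1 had 1.74 and 9.17 CPM. Prps1l1, for phosphoribosyl pyrophosphate synthesis, had 48.4 and 4.10 CPM, while X-linked Prps1 had 14.2 and 58.1 CPM. Pgk2, for glycolysis, had 4.36 and 0.724 CPM from 20 and 12 UMIs, while X-linked Pgk1 had 7.19 and 21.3 CPM. Pgk2 was 9.54-fold below its 41.6 CPM in Ldhc-high barcodes, while Pdha2 was 2.67-fold and Prps1l1 2.53-fold below theirs. The retrocopy list had 11 of 18 genes higher by 2-fold or more and 3 lower by as much, beside 11.2% and 30.7% of all genes. The list holds X-linked Hnrnph2, Tceal8 and Nxf2 and the autosomal genes Cdyl and Hsf5, which are not retrocopies of X-linked genes, and the 3 that were lower were Nxf2, Hnrnph2 and Cdyl. Rpl10l, the copy of an X-linked ribosomal protein gene, had 212 CPM in Meig1-high, Ldhc-low, 43.5 CPM in low-Meig1 and 208 CPM in Ldhc-high barcodes.

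The machinery that starts meiotic recombination was low. Of 10 break formation genes 9 were at least 2-fold lower than in low-Meig1 barcodes and none higher, with a median of -3.14. Over all genes 30.7% were lower and 11.2% higher by as much, with a median of -0.48. Mei4, a partner of the break-forming complex, had 1.09 CPM from 5 UMIs in Meig1-high, Ldhc-low and 40.6 CPM in low-Meig1 barcodes, 37.3-fold lower (15.9 to 115). Mei1 had 2.61 and 56.0 CPM. Prdm9, the methyltransferase that sets the sites of breaks, had 4.36 and 75.1 CPM, and Hells, its chromatin remodelling partner, had 74.1 and 711 CPM. Spo11, the enzyme that cuts, was the exception, with 78.0 CPM in Meig1-high, Ldhc-low, 97.4 CPM in low-Meig1 and 135 CPM in Ldhc-high barcodes. Of 15 genes of meiotic entry and spermatogonia 10 were at least 2-fold lower, among them Stra8, the retinoic acid target that starts meiosis, with 11.98 and 191 CPM. Thinned to 3000 UMIs, Stra8 was seen in 2.46% of Meig1-high, Ldhc-low barcodes, against 31.0% of low-Meig1 and 2.38% of Leydig-marker barcodes. Its share in the class was thus close to that of Leydig-marker barcodes.

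Of 19 synaptonemal complex and cohesin genes 2 were at least 2-fold higher and 7 lower, close to the 11.2% and 30.7% of all genes. Their median was -0.16, and it was 0.26 with a mitochondrial limit of 5% and 0.13 with a minimum of 5000 UMIs. Ccdc155 (KASH5), which joins telomeres to dynein through the nuclear envelope, had 141 CPM in Meig1-high, Ldhc-low, 40.0 CPM in low-Meig1 and 119 CPM in Ldhc-high barcodes. Hormad1, an axis protein of unsynapsed chromosomes, had 1411, 660 and 858 CPM in the same order. Terb1, which anchors telomeres, had 15.03, 119 and 35.1 CPM, and the cohesin subunit gene Smc1b had 370, 1200 and 558 CPM. Of 17 strand exchange and repair genes 4 were at least 2-fold higher and 8 lower, with a median of -0.88. Mnd1 had 335 CPM in Meig1-high, Ldhc-low and 90.6 CPM in low-Meig1 barcodes, and its partner Psmc3ip (HOP2) had 643 and 181 CPM. Tex15 had 91.5 and 699 CPM, and Atm, the kinase that answers breaks, had 12.4 and 110 CPM.

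Of 15 crossover genes 2 were at least 2-fold higher and 5 lower, with a median of -0.80, also close to the 11.2% and 30.7% of all genes. The higher ones were Cntd1 and Mlh3. Cntd1, a cyclin-like protein of crossover sites, had 346 CPM in Meig1-high, Ldhc-low, 77.1 CPM in low-Meig1 and 226 CPM in Ldhc-high barcodes, a ratio of 4.49 (4.17 to 4.84) to low-Meig1 barcodes. Mlh3, a subunit of the nuclease at crossovers, had 72.8, 35.1 and 97.6 CPM in the same order. X-linked Tex11, which acts with synapsis proteins in crossover formation, had 19.0 CPM in Meig1-high, Ldhc-low and 241 CPM in low-Meig1 barcodes, 12.7-fold lower (10.3 to 15.9).

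X-linked and Y-linked transcripts were low. X-linked genes held 0.656% of UMIs (0.648 to 0.663) in Meig1-high, Ldhc-low barcodes, against 2.36% in low-Meig1 and 0.893% in Ldhc-high barcodes. The share was 3.60-fold lower than in low-Meig1 barcodes (3.56 to 3.65). Y-linked genes held 0.0267% of UMIs in Meig1-high, Ldhc-low and 0.112% in low-Meig1 barcodes, 4.21-fold lower (3.97 to 4.46). Of 589 X-linked genes 449 (76.2%) were at least 2-fold lower and 6 higher, and all 10 Y-linked genes were lower, against 4237 of 14709 autosomal genes (28.8%) lower and 1711 (11.6%) higher. The X-linked median log2 ratio was -1.84 and the autosomal median -0.44. Usp26, an X-linked germline deubiquitinase, had 31.2 CPM in Meig1-high, Ldhc-low and 355 CPM in low-Meig1 barcodes. Scml2, a germline Polycomb protein, had 125 and 508 CPM. On the Y chromosome Zfy2, a zinc finger factor, had 40.1 and 183 CPM. The X-linked genes with the most UMIs in the class were Tmsb4x, for an actin-binding peptide, with 378 and 692 CPM, and Ndufa1, a subunit of respiratory complex I, with 265 and 361 CPM. Within the class, Tmsb4x had 336 CPM in barcodes of at least 3000 UMIs and 2308 CPM in shallower ones, and Ndufa1 had 264 and 296 CPM. Of the Tmsb4x UMIs in the deeper barcodes, 24.3% lay in 10 barcodes.

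The X-linked share also differed between barcodes of the class, and it went with depth. Its 5th percentile, median and 95th percentile were 0.269%, 0.614% and 2.70% over Meig1-high, Ldhc-low barcodes, against 1.19%, 2.47% and 3.17% over low-Meig1 barcodes. The 366 Meig1-high, Ldhc-low barcodes with at least 3000 UMIs had a median of 0.530%, and the 65 shallower ones a median of 2.39%, close to the low-Meig1 barcodes. Shares of at least 1.5% were found in 72 of the 431 barcodes, of which 55 were shallow and 28 of all 431 lay within 20% of that limit. The shallow barcodes had a median of 1397 UMIs and 8.53% mitochondrial UMIs, and carried 1287 CPM of Rsph1, against 3441 CPM in the whole class, and 6128 CPM of summed Sertoli markers, against 938 CPM. With barcodes of at least 3000 UMIs in both classes, the X-linked share was 0.621% in Meig1-high, Ldhc-low and 2.36% in low-Meig1 barcodes, 3.79-fold lower (3.75 to 3.84), so the difference was as large without the shallow barcodes.

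**Figure D3:**
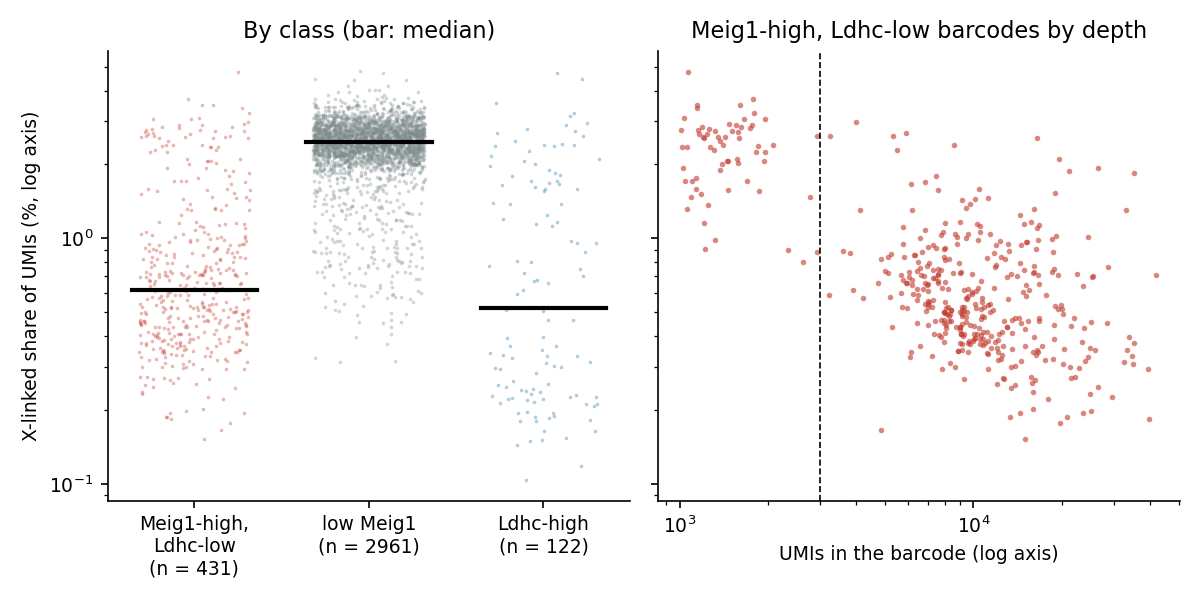
Share of a barcode's UMIs from X-linked genes (log axis), on the left by class with the median as a bar, and on the right against the barcode's UMIs (log axis) for the 431 Meig1-high, Ldhc-low barcodes, with a dashed line at 3000 UMIs. The class medians are 0.614%, 2.47% and 0.521% from left to right, and most shares of 1.5% or more in the right panel lie below 3000 UMIs.

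Of the 366 deeper barcodes, 17 still had an X-linked share of 1.5% or more, and 16 deeper barcodes lay within 20% of the limit. These 17 had 2593 CPM of summed Sertoli markers and 2698 CPM of summed Leydig markers, against 739 and 300 CPM in the other 349, and 3 were called doublets. Rsph1 had 1802 CPM in the 17 and 3570 CPM in the 349, and Meig1 had 1773 and 2626 CPM. The part of RNA from other cells in their X-linked share was not tested. In Ldhc-high barcodes the share was split too, with a median of 0.521% and 36 of 122 at 1.5% or more, 14 lying within 20% of that limit. Among those with at least 3000 UMIs, Slxl1, an X-linked gene of a multicopy family, had 4328 CPM in the 35 above the limit and 164 CPM in the 85 below it, and in the Meig1-high, Ldhc-low class it differed in the same direction, with 326 CPM (68 UMIs) in the 17 and 15.6 CPM (67 UMIs) in the 349.

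Among genes of H2A.Z, H2afz, which encodes H2A.Z.1, had 2257 CPM in Meig1-high, Ldhc-low, 1247 CPM in low-Meig1 and 2679 CPM in Ldhc-high barcodes. H2afv, for H2A.Z.2, had 821, 601 and 368 CPM in the same order, 2.23-fold above Ldhc-high barcodes (2.08 to 2.39). Znhit1 itself had 12 UMIs in the class (2.61 CPM), 49 in low-Meig1 barcodes (2.95 CPM) and 5 in Ldhc-high barcodes, and its ratio of 0.885 to low-Meig1 barcodes had an interval of 0.428 to 1.69. Reads at the 3′ end of Znhit1 do not check the deletion, since the labels do not say which part of the gene was removed. Of 23 genes of H2A.Z and its deposition complexes 3 were at least 2-fold higher and 2 lower than in low-Meig1 barcodes, with a median of 0.29, beside 11.2% higher and 30.7% lower over all genes. Ruvbl2, a shared ATPase of these complexes, had 193 CPM in Meig1-high, Ldhc-low and 50.4 CPM in low-Meig1 barcodes, and Anp32e, a chaperone that removes H2A.Z, had 17.6 and 68.4 CPM.

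In the list of histone variants and linker histones, 2 of 13 genes were at least 2-fold higher and 4 lower, close to the shares over all genes. H2afy, for macroH2A1, a histone of the sex body, had 315 CPM in Meig1-high, Ldhc-low, 82.6 CPM in low-Meig1 and 605 CPM in Ldhc-high barcodes. H2afx, whose phosphorylated protein marks the sex body, had 1285, 487 and 787 CPM in the same order. The linker histone gene Hist1h1a had 49.5 CPM in Meig1-high, Ldhc-low and 592 CPM in low-Meig1 barcodes, and Cenpa, the centromeric histone H3 variant, had 10.5 and 114 CPM. Of 19 sex body and damage signalling genes 1 was at least 2-fold higher, H2afx, and 5 were lower, near the 11.2% and 30.7% of all genes. The list median was -0.17, beside -0.48 for all genes. Chek1, a checkpoint kinase, had 3.92 and 31.1 CPM.

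Of 33 cyclin, kinase and G2/M genes 6 were at least 2-fold higher and 16 lower than in low-Meig1 barcodes, with a median of -0.95. Over all genes the shares were 11.2% and 30.7% and the median -0.48. Cdc20, an activator of the anaphase complex, had 1005 CPM in Meig1-high, Ldhc-low, 344 CPM in low-Meig1 and 615 CPM in Ldhc-high barcodes, and Cdk1, the kinase of the meiotic division, had 531, 219 and 365 CPM. Ccna1, the cyclin needed to leave prophase, had 1.09 CPM from 5 UMIs in the class and 14.8 CPM in Ldhc-high barcodes. Fbxo5, an inhibitor of the anaphase complex, had 2.83 CPM in Meig1-high, Ldhc-low and 44.0 CPM in low-Meig1 barcodes. Of 27 chaperone genes 9 were at least 2-fold higher and 1 lower, with a median of 0.64, beside the same all-gene values. Hsp90aa1, among the higher ones, had 6980 and 3248 CPM. Of 23 proteasome and ubiquitin genes 2 were at least 2-fold higher and 6 lower, near the shares of all genes. Kctd19, a meiotic adaptor protein, had 276 CPM in Meig1-high, Ldhc-low and 97.6 CPM in low-Meig1 barcodes.

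Of 22 apoptosis and p53 genes 3 were at least 2-fold higher and 8 lower, with a median of -0.56, near the 11.2%, 30.7% and -0.48 of all genes. Trp63, the p53 relative that guards germ cells, had 26.6 CPM in Meig1-high, Ldhc-low, 8.74 CPM in low-Meig1 and 3.25 CPM in Ldhc-high barcodes. Cdkn1a, which encodes the cycle inhibitor p21, had 31.8, 12.6 and 20.6 CPM in the same order. Of 16 dissociation stress genes none was at least 2-fold higher and 1 was lower, and all 13 mitochondrial transcripts were within 2-fold, with medians of -0.64 and -0.51 beside -0.48 for all genes.

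Set against Ldhc-high barcodes, the largest upward ratios among genes of at least 100 CPM in the class were those of Jak1 (6.99), Mnd1 (6.31), Ggh (5.80), Rad51ap2 (5.52), Top2b (5.20), Stk3 (5.04), Mdk (5.003), Ebpl (4.89), Ktn1 (4.85), Meiob (4.78), Elavl3 (4.63) and Dmc1 (4.58). Of the recombination genes among them, MND1 acts with PSMC3IP in strand exchange, MEIOB binds single-stranded DNA and DMC1 is the meiotic recombinase. In the lists, 4 of 16 strand exchange genes, none of 15 crossover genes and none of 9 break formation genes were at least 2-fold higher than in Ldhc-high barcodes, beside 10.8% of all genes. Mnd1 had a lowest, median and highest level of 0, 286 and 1439 CPM over Meig1-high, Ldhc-low barcodes, against 0, 0 and 1211 CPM over low-Meig1 and 0, 42.9 and 326 CPM over Ldhc-high barcodes. Thinned, it was seen in 63.7% of Meig1-high, Ldhc-low, 16.6% of low-Meig1, 11.7% of Ldhc-high and 4.21% of Leydig-marker barcodes. Mnd1 was therefore highest in the class of the 3 compared.

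Several of these genes had their highest summed level in the class and not in either neighbour. Rad51ap2 had 517 CPM in Meig1-high, Ldhc-low, 270 CPM in low-Meig1 and 93.7 CPM in Ldhc-high barcodes, and Meiob had 322, 215 and 67.3 CPM in the same order. Elavl3, a Hu-family RNA-binding protein known from neurons, had 184, 139 and 39.8 CPM. Ktn1, which encodes the membrane protein kinectin, had 123, 53.1 and 25.3 CPM. Dmc1 and Stk3 differed from these, since both were higher in low-Meig1 barcodes, with 146, 353 and 31.8 CPM for Dmc1 and 108, 161 and 21.3 CPM for Stk3.

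The largest downward ratios to Ldhc-high barcodes were those of Tcp10a, 66.0-fold lower (33.1 to 154), and Slxl1, 39.2-fold lower, followed by Slco6c1, Ggnbp1, Plaat5, Hspb9, Stpg4, Ppp3r2, Pebp4, Grtp1, Dnah17 and Fbp1, the last 14.0-fold lower. Slco6c1 encodes a testis transporter, Ggnbp1 a gametogenetin-binding protein, Hspb9 a testis heat shock protein and Fbp1 the gluconeogenic fructose bisphosphatase. Tcp10a had 1.74 CPM from 8 UMIs in Meig1-high, Ldhc-low and 115 CPM in Ldhc-high barcodes. Of these 12 genes, 8 were within 2-fold of the class in low-Meig1 barcodes too. Over all genes measured 8910 of 15331 were within 2-fold, so this count is near the share of all genes. Ggnbp1 had 16.6 CPM in Meig1-high, Ldhc-low, 16.8 CPM in low-Meig1 and 528 CPM in Ldhc-high barcodes.

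Against low-Meig1 barcodes, the 12 largest downward ratios among genes of at least 100 CPM there ran between 12.7-fold and 16.4-fold. They were those of Elavl2, Tex16, Stra8, Stxbp5l, Hist1h2bm, Eml5, M1ap, Auts2, Tex13b, Gm45194, Ddb2 and Tex11, of which Tex11, Tex16, Tex13b and Gm45194 are X-linked. M1ap is a meiotic protein needed for crossovers and Ddb2 a DNA damage-binding protein. Auts2, a regulator linked to Polycomb complexes, had 49.0 CPM in Meig1-high, Ldhc-low, 670 CPM in low-Meig1 and 34.4 CPM in Ldhc-high barcodes. Its level was low in both Meig1-high classes.

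**Figure D4:**
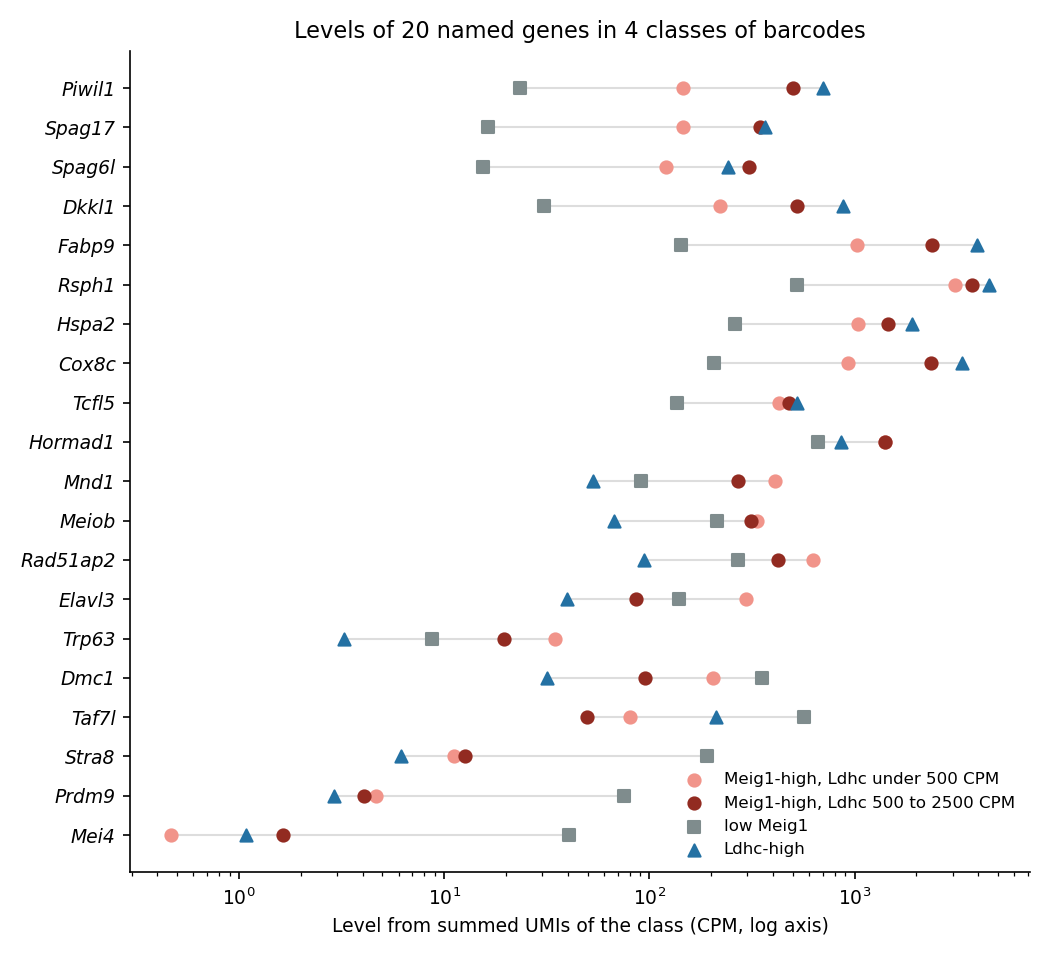
Summed levels of 20 named genes (CPM, log axis) in Meig1-high barcodes with Ldhc under 500 CPM (pale red), Meig1-high barcodes with Ldhc of 500 to 2500 CPM (dark red), low-Meig1 barcodes (grey squares) and Ldhc-high barcodes (blue triangles). Piwil1 and Fabp9 lie in the order of Ldhc, while Mnd1, Rad51ap2, Elavl3 and Trp63 are highest in the pale red group.

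Within the class, levels shifted with Ldhc, one of the rule genes, so the following is a description. Split at 500 CPM of Ldhc, 221 barcodes lay below (median 8242 UMIs) and 210 at or above it (median 10508 UMIs). Piwil1 had 503 CPM in the upper group and 146 CPM in the lower, Spag17 345 and 145 CPM, Fabp9 2387 and 1026 CPM, and Cox8c, a testis subunit of cytochrome c oxidase, 2347 and 930 CPM. The other way, Elavl3 had 85.7 CPM in the upper group and 297 CPM in the lower, Mnd1 272 and 409 CPM, Trp63 19.6 and 34.6 CPM, and Cdk1 349 and 740 CPM. Some genes were level: Hormad1 had 1413 and 1408 CPM, and Mybl1 171 and 170 CPM. The X-linked share was 0.541% in the upper group and 0.788% in the lower. The Y-linked gene Zfy2 had 15.1 and 68.7 CPM.

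Over the 366 barcodes with at least 3000 UMIs, correlations were taken on log levels per barcode, and these barcodes share a library and differ in depth, which itself had an r of 0.34 with Ldhc. They are given as description. Piwil1 had the highest r with Ldhc, 0.55, and an r of 0.41 with depth. Tmsb10, for an actin-binding peptide, had 0.49, Fabp9 0.48, Khdrbs3 0.47, Nedd8, for a ubiquitin-like protein, 0.47 and Cox6b2 0.46. At the other end, Oaz1, a regulator of polyamines, had an r of -0.42, Dazl, a germ cell translation factor, -0.41 and Elavl3 -0.39. Elavl3 had an r of -0.05 with depth and Dazl -0.35.

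**Figure D5:**
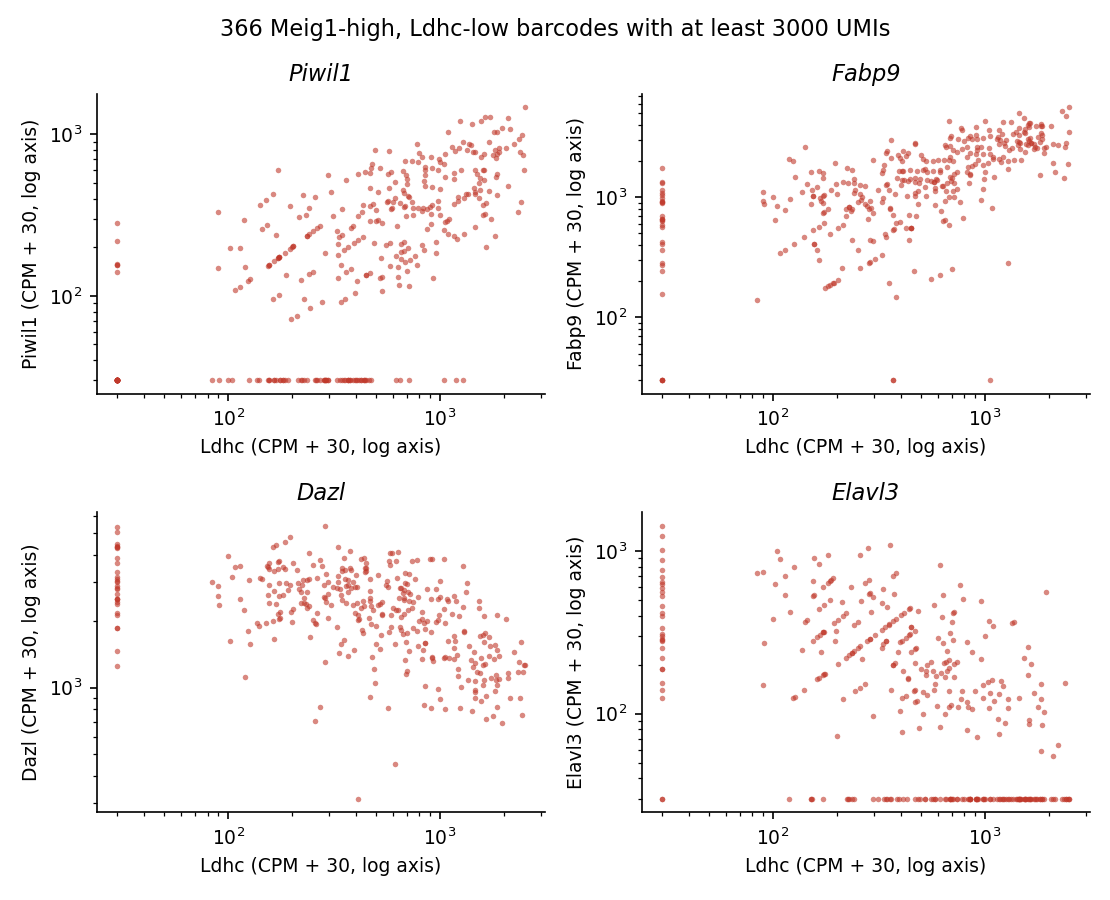
Levels of Piwil1, Fabp9, Dazl and Elavl3 against Ldhc in the 366 Meig1-high, Ldhc-low barcodes with at least 3000 UMIs, as CPM plus 30 on log axes, where each point is a barcode and points on the lower or left edge have no UMI. Piwil1 and Fabp9 climb with Ldhc (r of 0.55 and 0.48), and Dazl and Elavl3 decline (r of -0.41 and -0.39).

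Variation among the 366 barcodes beyond counting error was measured as an excess squared coefficient of variation, with a median of 0.0830 over 2147 genes of at least 100 CPM. Piwil1 had 0.732 and Elavl3 0.918, both above the 95th percentile of 0.391. The gene that varied most was Fabp3, a Leydig marker of the lists used here, at 14.1, and 1 barcode held 19.9% of its UMIs and 10 barcodes 43.8%. Aard, a Sertoli marker, had 2.03. Spag16, for a central apparatus protein of the tail, had 2.10.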

How the data were processed

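Testis cells were profiled with 10x Genomics 3′ single-cell RNA sequencing. For each library the authors deposited a matrix of UMI counts (genes by barcodes), made with Cell Ranger 7.1.0 and a mouse mm10 reference, per the submitters' processing notes. The deposited counts were used as they stand, and no depth correction beyond CPM was made. Of the other 3 libraries the barcode lists were used, and their counts were not analysed here.

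Barcodes with at least 1000 UMIs, at least 500 genes and at most 10% mitochondrial UMIs were kept. Counts were summed over the barcodes of a class and divided by the class total, scaled to 1000000, to give CPM. Levels have exact Poisson intervals, ratios exact conditional binomial intervals and shares Clopper-Pearson intervals, all at 95% and for counting error only. A count of 0 was set to 3 UMIs over the class for a bound. Ratios needed 20 or more UMIs in the paired classes together, and leave out Meig1, Sycp1 and Ldhc, which chose the classes. The ratio calculation was tested on simulated counts with known ratios and counting error alone. That test therefore does not cover variation between barcodes. Doublets were called with Scrublet in scanpy 1.11.5, and thinning and seeds were fixed. Python 3.11.15, numpy 2.4.6, scipy 1.17.1, pandas 2.3.3 and matplotlib 3.10.9 were used. Chromosomes came from GENCODE, which held 32235 of the 32285 gene IDs, and promoter windows from RefSeq (GRCm38.p6).

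Members, gene lists and markers were chosen with earlier results of these data known. The text names the marker and rule genes, in each list the gene of highest CPM and the 2 largest ratios each way if past 1.5-fold, and over all genes the 12 largest ratios each way among those of at least 100 CPM. Genes named outside this rule, such as paralogues set beside a named gene, list exceptions, X-linked genes and genes chosen for their spread or correlation, were chosen after their values were seen. Alternatives were other limits for mitochondrial share, UMIs, Meig1, Ldhc and Sycp1, doublets left out, other count minimums and equal weight per barcode.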

Additional observations from a re-analysis of the deposited data

How the results depend on the processing

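The size of the class moved with its limits. In place of 431 barcodes it held 295 with a mitochondrial limit of 5% and 488 with 20%, 366 with a minimum of 3000 UMIs and 355 with 5000, 587 with a Meig1 limit of 800 CPM and 280 with 1800, 383 with an Ldhc limit of 1500 CPM and 486 with 4000, and 377 with a Sycp1 limit of 2000 CPM. The ratio of the X-linked share in Meig1-high, Ldhc-low over low-Meig1 barcodes was 0.278, and stayed below 1 in each of these: 0.258 and 0.296 with the mitochondrial limits, 0.264 and 0.269 with the UMI minimums, 0.314 and 0.231 with the Meig1 limits, 0.291 and 0.298 with the Ldhc limits, 0.267 with the Sycp1 limit, 0.262 without doublets and 0.374 with equal weight per barcode. With at least 100 UMIs per gene, 1134 genes were at least 2-fold higher and 3025 lower than in low-Meig1 barcodes, in place of 1718 and 4703, and 589 and 677 than in Ldhc-high barcodes, in place of 1275 and 1409. With at least 5 UMIs the Ldhc-high counts were 2157 and 2498, since the minimum sets which genes are compared. Of 294 list medians 288 stayed inside the range that order statistics give for the median over the list's genes. Such ranges are wide, and 3 medians changed sign within them: synaptonemal complex and cohesin (-0.16) between -0.40 and 0.26, histones (-0.28) between -0.50 and 0.49, and proteasome (-0.03) between -0.12 and 0.15. Others kept their sign but moved by over 1.5 times on the fold scale or in size, such as meiotic entry (-2.14, lowest -2.79), metabolic paralogues (1.56, 1.13 to 2.18), strand exchange (-0.88, highest -0.30), crossover (-0.80, highest -0.35), regulators (0.70, lowest 0.29) and apoptosis (-0.56, highest -0.15). The dissociation stress median of -0.64 became -1.01 with 5% mitochondrial UMIs, -0.93 with 5000 UMIs, -0.94 with Meig1 of 1800 CPM and -0.0865 with equal weight, and the mitochondrial median of -0.51 became -0.22 and -0.44 with 5% and equal weight. Of 4901 values for single genes 4677 stayed within 1.5-fold, 222 moved further and, of those past 2-fold, 2 changed sign, both log2 ratios to Ldhc-high barcodes. Bik had -0.26 with an Ldhc limit of 1500 CPM in place of 1.36, and Bach2 had 0.29 with 4000 CPM in place of -1.28. The cause was not tested. No paired analysis was possible because each group has 1 library and no result comes from a test. Depth limits low genes: Znhit1 had 12 UMIs in the class, and an absence of UMIs is not an absence of the transcript.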
